A study of Homo sapiens with 4 samples.

Results

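The genes described here encode the aminoacyl-tRNA synthetases, measured in the human lung adenocarcinoma cell line A549, and the proteins that hold part of these enzymes in a complex. They were found by gene symbol among the 57905 genes of the series, and all 39 listed symbols were present: 20 genes of cytosolic synthetases, 3 scaffold genes of the multi-synthetase complex (AIMP1, AIMP2 and EEF1E1) and 16 mitochondrial synthetases, whose symbols end in the suffix 2. RNA was sequenced from 2 libraries of cells treated for 24 h with 0.6 µM GMI, which is an immunomodulatory protein from Ganoderma microsporum, a fungus, and from 2 libraries of control cells, for which the labels name no vehicle. All cells were grown in medium with fetal bovine serum. The stated aim was to profile genes that differ after GMI. Whether replicate libraries stem from separate cultures of this 1 cell line is not stated, so p-values measure only the spread between libraries, which may be technical.

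An aminoacyl-tRNA synthetase joins an amino acid to its tRNA, the step that sets the genetic code before the ribosome reads it. Human cells use separate sets of these enzymes in the cytosol and in mitochondria, all encoded in the nucleus, although the genes GARS and KARS each supply both compartments. Several cytosolic synthetases sit in a large complex built on AIMP1, AIMP2 and EEF1E1 (also called AIMP3), while others act alone. When amino acids run short, uncharged tRNA activates the kinase GCN2 (gene EIF2AK4), eIF2 is phosphorylated and the transcription factor ATF4 is translated, and genes of many cytosolic synthetases are known ATF4 targets.

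The deposited values are FPKM, fragments scaled to gene length and to library size. Levels can be compared between genes only as far as the gene lengths used, which are not stated, are right. The library denominators behind them lay between 20560000 and 24090000 fragments, and every member rested on at least 107 fragments in each library (PARS2, the shallowest), which gives a counting error of at most 9.67%. Of all genes, 11598 passed the filter of 1 FPKM in at least 2 libraries, and all 39 members were among them. The epithelial keratin genes KRT8 (1914 and 1981 FPKM after GMI, 1928 and 1841 in control) and KRT18 were abundant, while KRT19, another epithelial marker, was below 1 FPKM in all 4 libraries. The 8 genes listed as epithelial markers include the enzyme genes ALDH1A1, AKR1B10 and AKR1C1. The 8 summed to 4363 and 4417 FPKM after GMI and to 5366 and 5206 in control. Most of the gap lay in ALDH1A1, which had 1067 and 1091 FPKM after GMI and 1848 and 1842 in control, while CDH1, CLDN4, KRT19 and AKR1C1 were higher in both GMI libraries. The part of these differences in the results below was not tested. PTPRC and CD3E, which define leukocytes and T cells, were listed at 0 in all 4 libraries. The 4 immune markers reported summed to 6.26 and 4.55 FPKM after GMI and to 3.11 and 3.16 in control, mostly through CD14. The 7 fibroblast markers summed to 1.28 to 1.36 FPKM, and the 3 endothelial markers found to at most 0.07.

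After GMI, RNA of the cytosolic synthetases was slightly lower across most of the set, and no member rose. Of the 39 members, 7 fell at an adjusted p of 0.05 (limma on log2(FPKM + 1), adjusted over all tested genes), which is 17.9% against 6.12% of all tested genes. These were the cytosolic FARSB, HARS, IARS, KARS and WARS, the scaffold AIMP2 and the mitochondrial AARS2. None of the 39 (0) rose, against 9.3% of all tested genes, and 1 member (PARS2) was higher at an unadjusted p under 0.05, against 17.2% of all tested genes. The falls were small: FARSB fell by 35.5% in FPKM, and the other 6 by 16.7% to 24.7%. FPKM are shares of each library, so fewer transcripts per cell in all genes alike could not be seen, and fewer cells with a transcript cannot be told apart from less RNA per cell. The calls rested on both controls: without control replicate 1 or control replicate 2, 0 and 0 members passed, as 74 and 45 of all tested genes did, against 1789 with all libraries. Without GMI replicate 1, 7 members passed, of which 4 were the same, and without GMI replicate 2, 3 passed, of which 2 (AIMP2 and FARSB) were the same.

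**Figure D1:**
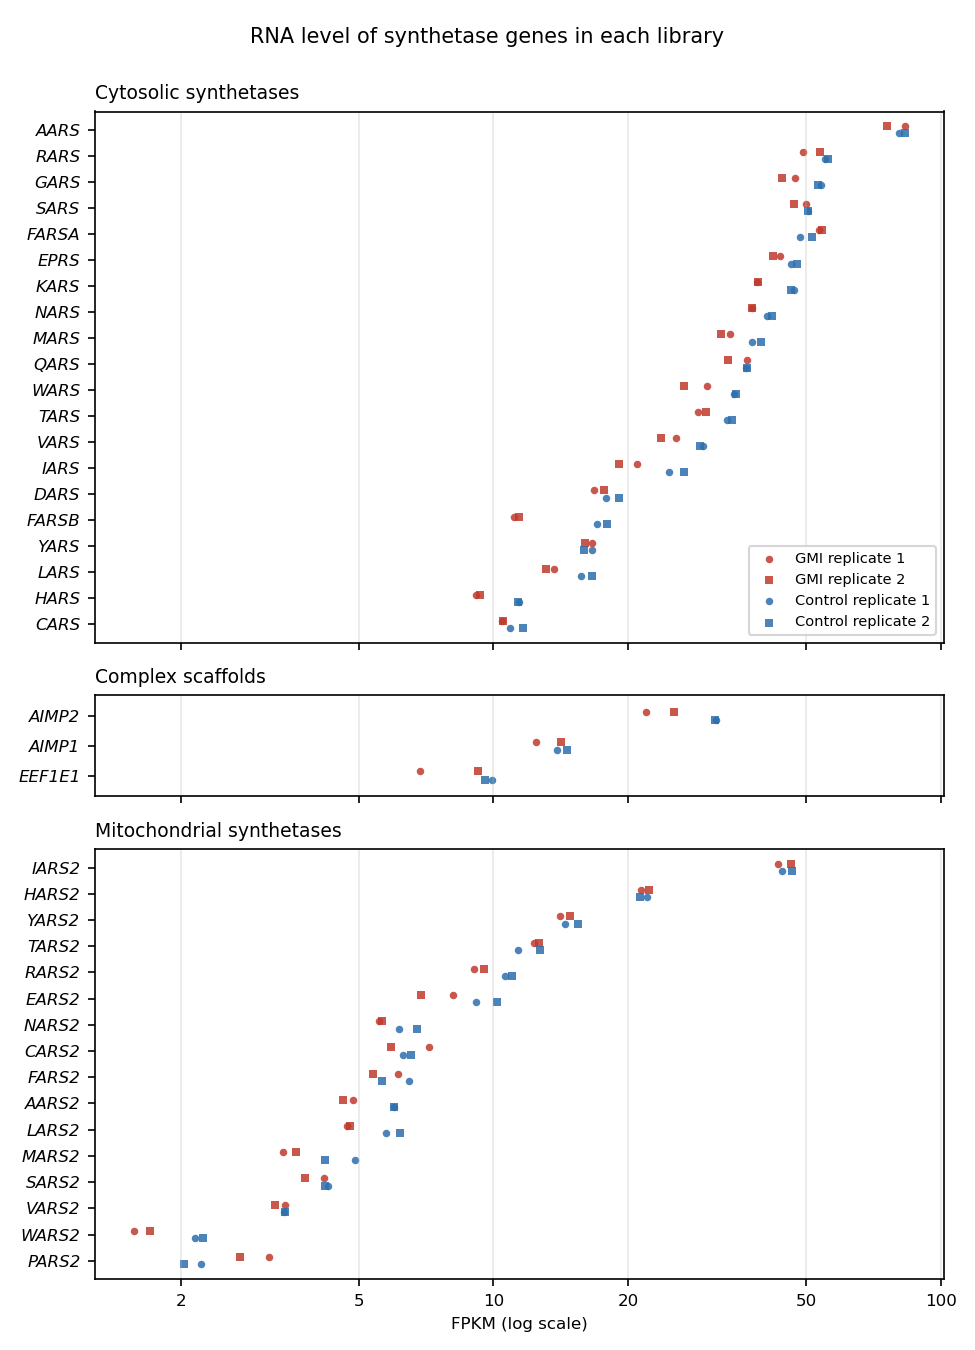
RNA level of each of the 39 genes in each library, in FPKM on a log scale, with GMI libraries in red above control libraries in blue and circles and squares for replicates 1 and 2. Genes are ordered by their control mean within each group: AARS tops the cytosolic set at about 80 FPKM, most mitochondrial synthetases lie below 15 FPKM, and FARSB shows the widest gap between the groups among cytosolic genes.

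Among the 20 cytosolic synthetases, 5 fell, 0 rose and 15 did not pass, and the median log2 fold change was -0.16, against -0.01 for all tested genes. Both GMI libraries lay below both controls for 16 of the 20 (80% of them, against 30.4% of all tested genes) and above both for 1, FARSA (29.8% of all tested genes). FARSB, the beta subunit of the phenylalanyl-tRNA synthetase, had 11.1 and 11.4 FPKM after GMI and 17.1 and 18.0 in control. Its groups were well separated, with a log2 fold change of -0.59 (SE 0.066, adjusted p = 0.00312), at percentile 1.70 of all tested genes. FARSA encodes the alpha subunit of the same enzyme, which is built from equal numbers of alpha and beta chains. It had 53.5 and 54.3 FPKM after GMI and 48.5 and 51.5 in control, a log2 fold change of 0.11 (95% interval -0.04 to 0.25, adjusted p = 0.27). The FARSA level was 4.80 and 4.75 times that of FARSB in the GMI libraries, and 2.84 and 2.87 times in the control libraries, a ratio chosen after the values were seen and given without a test.

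IARS, which charges isoleucine, had 20.9 and 19.1 FPKM after GMI and 24.7 and 26.6 in control (log2 fold change -0.34, SE 0.074, adjusted p = 0.0266). KARS, the lysyl enzyme of cytosol and mitochondria, had 38.84 and 39.04 FPKM after GMI and 47.1 and 46.4 in control (-0.26, SE 0.056, adjusted p = 0.0268). HARS, the histidyl enzyme, had 9.16 and 9.32 FPKM after GMI and 11.4 and 11.4 in control (-0.28, SE 0.066, adjusted p = 0.0358). The groups did not overlap in any of these genes. The libraries of a group lay close together in KARS and HARS. In IARS they differed more, with a coefficient of variation of 6.54% after GMI and 5.46% in control. WARS, the tryptophanyl enzyme, which interferon gamma is known to induce, had 29.98 and 26.75 FPKM after GMI and 34.5 and 34.9 in control (-0.28, SE 0.072, adjusted p = 0.0435). The WARS groups did not overlap either, but the GMI libraries differed from each other more than the controls did, and under median-ratio scaling the gene missed the threshold (adjusted p = 0.0508).

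A further set of cytosolic genes lay just outside the threshold. LARS, the leucyl enzyme, which also takes part in sensing leucine for mTORC1, had 13.7 and 13.1 FPKM after GMI and 15.7 and 16.6 in control (log2 fold change -0.25, adjusted p = 0.0506). VARS (valine), MARS (methionine), GARS (glycine) and TARS (threonine) had log2 fold changes of -0.24, -0.22, -0.23 and -0.20 and adjusted p of 0.0535, 0.0542, 0.0543 and 0.0687. In each of these 5 genes both GMI libraries lay below both controls. MARS shares 13.3% of its exon length with other genes, among them DDIT3 on the opposite strand, and DDIT3 rose (0.57). When only genes with a mean of at least 5 FPKM were tested, these 5 passed as well and 10 of the 20 cytosolic synthetases fell. Under that filter a larger share of all genes fell too, 705 of 6070.

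The other cytosolic genes did not pass. EPRS, a fused enzyme for glutamate and proline, and NARS (asparagine) had log2 fold changes of -0.13 and -0.13, RARS (arginine) -0.11, CARS (cysteine) -0.10 and DARS (aspartate) -0.09. RARS had 49.2 and 53.9 FPKM after GMI and 55.1 and 56.1 in control (adjusted p = 0.303). AARS, the alanyl enzyme and the most abundant member, had 83.2 and 75.9 FPKM after GMI and 80.5 and 83.2 in control, so its groups overlapped (-0.04, SE 0.066, 95% interval -0.20 to 0.12, adjusted p = 0.71). QARS (glutamine, -0.06) and YARS also overlapped between groups. YARS, the tyrosyl enzyme, averaged 16.3 ± 0.43 FPKM after GMI and 16.3 ± 0.52 in control (SD, n = 2 each). Its log2 fold change was 0.00 (95% interval -0.15 to 0.16, limma adjusted p = 0.992). SARS (serine) had 50.1 and 46.9 FPKM after GMI and 50.4 and 50.5 in control, a log2 fold change of -0.06.

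The values were close between the structural classes of the enzymes. Of 9 class I cytosolic enzymes 2 fell (median log2 fold change -0.23), and of 10 class II enzymes 3 fell (median -0.16), with EPRS, which joins a catalytic domain of each class, left out. Of the 8 cytosolic synthetases that belong to the multi-synthetase complex 2 fell (IARS and KARS; median -0.18), and of the 12 outside it 3 fell (median -0.16). Among all tested genes 6.12% fell, with a median of -0.01. No test was made between these subsets.

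The 3 scaffolds had more uneven values. AIMP2, around which the complex assembles, had 21.9 and 25.4 FPKM after GMI and 31.5 and 31.3 in control, a log2 fold change of -0.40 (SE 0.080, adjusted p = 0.0213). EEF1E1 had 6.84 and 9.25 FPKM after GMI and 9.95 and 9.57 in control (-0.26, SE 0.126, adjusted p = 0.204). The GMI libraries of EEF1E1 differed by a coefficient of variation of 21.2%, where counting alone gives at most 5.63%. AIMP1, whose cleaved form is also known as a cytokine, had 12.5 and 14.2 FPKM after GMI and 13.9 and 14.7 in control (-0.09, adjusted p = 0.481), and its groups overlapped. GMI replicate 1 was the lower GMI library for all 3 genes, and the median over them was -0.07 without it and -0.46 without GMI replicate 2. AIMP2 shares 28.9% of its exon length with EIF2AK1 on the opposite strand and EEF1E1 shares 18.7% with a readthrough gene, so part of their fragments may have been assigned otherwise.

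**Figure D2:**
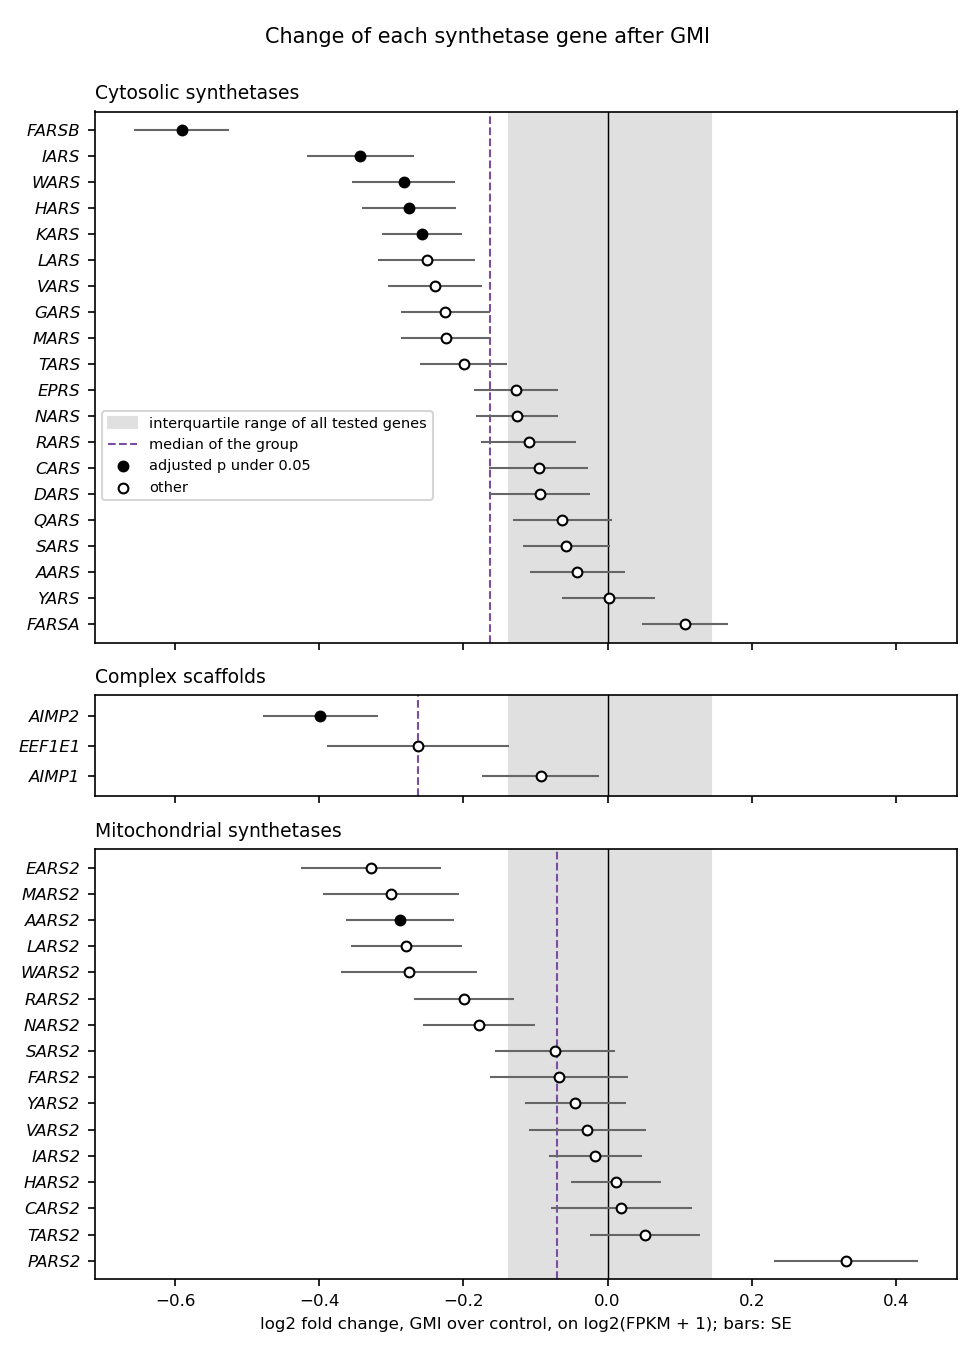
Log2 fold change of each of the 39 genes, GMI over control, on log2(FPKM + 1), with standard errors as bars; filled points have an adjusted p under 0.05, the dashed line is the group median and the grey band the interquartile range of all tested genes, -0.14 to 0.14. The 5 filled cytosolic genes lie between -0.59 and -0.26, and 1 mitochondrial gene, AARS2, is filled.

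Mitochondrial synthetases showed fewer calls. Of 16, 1 fell, 0 rose and 15 did not pass, a share of 6.25% against 6.12% of all tested genes, and the median log2 fold change was -0.07. At an unadjusted p under 0.05 with limma, 6 were lower and 1 higher, against 15% and 17.2% of all tested genes. Of the 20 cytosolic genes, 10 were lower and 0 higher at that p. Both GMI libraries lay below both controls for 8 mitochondrial genes, or 50% of the 16. They lay above both for 1, against 30.4% and 29.8% of all tested genes. AARS2, the mitochondrial alanyl enzyme, had 4.85 and 4.62 FPKM after GMI and 5.99 and 6.01 in control (-0.29, SE 0.074, adjusted p = 0.0461). EARS2 (glutamate) had 8.13 and 6.89 FPKM after GMI and 9.14 and 10.2 in control, the lowest log2 fold change of the group (-0.33, SE 0.097), and missed the threshold (adjusted p = 0.066). MARS2 (methionine) had 3.38 and 3.62 FPKM after GMI and 4.90 and 4.20 in control (-0.30, SE 0.094, adjusted p = 0.0771).

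LARS2 and WARS2 had similar values, at -0.28 and -0.28 on the log2 scale (adjusted p = 0.0555 and 0.0961), as had RARS2 (-0.20) and NARS2 (-0.18), with separated groups in each. In FPKM the means of EARS2, MARS2, LARS2 and WARS2 were lower by 20.6% to 25.3% (SE of 0.077 to 0.097 on the log2 scale). KARS, HARS and WARS, which passed, were lower by 16.7% to 18.9% (SE of 0.056 to 0.072). PARS2, the prolyl enzyme, went the other way. It had 3.16 and 2.71 FPKM after GMI and 2.22 and 2.03 in control (0.33, SE 0.0996), but rested on few fragments and missed the threshold (adjusted p = 0.0701). The most abundant mitochondrial members barely differed: IARS2 had 43.3 and 46.3 FPKM after GMI and 44.1 and 46.5 in control (-0.02, 95% interval -0.17 to 0.14). HARS2 had 21.4 and 22.29 FPKM after GMI and 22.04 and 21.29 in control (0.01, 95% interval -0.14 to 0.16).

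TARS2 had 12.3 and 12.7 FPKM after GMI and 11.3 and 12.7 in control (0.05, adjusted p = 0.688). CARS2, FARS2, VARS2 and YARS2 overlapped between groups as well, with log2 fold changes from -0.07 to 0.02, and SARS2, at -0.07, had both GMI libraries below both controls. SARS2 shares 57% of its exon length and VARS2 22% with other genes in GENCODE 29, so their FPKM are uncertain.

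Set against each other, the cytosolic and mitochondrial sets differed in level far more than in response. The 20 cytosolic genes had a median of 31.9 and 31.1 FPKM in the GMI libraries and 35.6 and 35.9 in the control libraries, and summed to 658 and 638 FPKM after GMI and 709 and 724 in control. The 16 mitochondrial genes had a median of 5.83 and 5.51 FPKM after GMI and 6.23 and 6.38 in control, and summed to 152 and 154 FPKM after GMI and 159 and 164 in control. In mean log2(FPKM + 1), the cytosolic set lay above the mitochondrial set by 1.871 and 1.865 in the GMI libraries and by 1.932 and 1.945 in the control libraries, a gap that was narrower in both GMI libraries. The median log2 fold change of the cytosolic set was lower than that of the mitochondrial set by a difference of -0.09, which was -0.02 without GMI replicate 1 and -0.04 without control replicate 2. These are descriptions of chosen genes, with no test.

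The order did not hold amino acid by amino acid. Of 16 pairs of a cytosolic and a mitochondrial enzyme for the same amino acid, with EPRS standing for both glutamate and proline and FARSA for phenylalanine, the cytosolic gene had the lower log2 fold change in 7 and the higher in 9. With FARSB in place of FARSA it was lower in 8. Isoleucine, histidine, threonine and valine had lower cytosolic values beside mitochondrial ones near 0, for example HARS at -0.28 and HARS2 at 0.01. Alanine and glutamate showed the opposite, with AARS at -0.04 and AARS2 at -0.29. For tryptophan, both genes had -0.28 on log2(FPKM + 1), a scale that understates changes of low genes. In FPKM the mean of WARS was lower by 18.2% and that of WARS2 by 25.3%. The place of this pair among the 7 therefore rests on the scale. HARS and HARS2 lie next to each other on opposite strands and overlap (8.4% of the exon length of HARS and 15.8% of that of HARS2 are shared with other genes), and without a stated strand setting their shared fragments cannot be told apart. In 14 of 16 pairs the cytosolic gene was the more abundant in control, by a median of 7.32 times over those 14, and HARS2 and IARS2 were the exceptions.

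**Figure D3:**
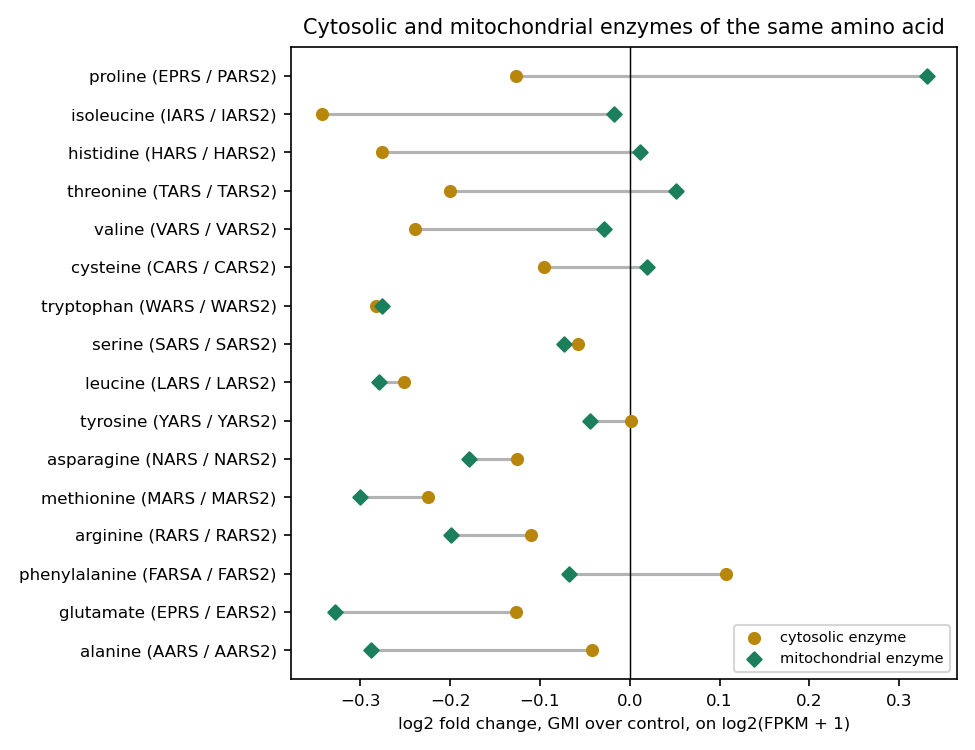
Log2 fold change after GMI, on log2(FPKM + 1), of the cytosolic enzyme (circles) and the mitochondrial enzyme (diamonds) that charge the same amino acid, with a line joining each pair and pairs ordered by the difference. In the 7 uppermost pairs, proline to tryptophan, the cytosolic gene has the lower value, and in the 9 below it the higher one.

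Several cytosolic promoters hold a short sequence found in 1 mitochondrial promoter. ATF4 pairs with C/EBP proteins on C/EBP-ATF response elements, whose core was searched as TGATGNAA on both strands, from 250 bases before to 50 bases after each RefSeq start on GRCh38.p14. Promoters were found for 33 of the 39 members, all but DARS, LARS, VARS, YARS, AARS2 and VARS2. The core was present in 7 of 16 cytosolic genes, 0 of 3 scaffolds and 1 of 14 mitochondrial genes (YARS2), against 4.46% of 27305 genes with a promoter. The 7 cytosolic stretches are shown because the same 8 letters, on 1 strand or the other, recur in most of them, with the match in capitals, read 5′ to 3′ on the gene's strand.
AARS: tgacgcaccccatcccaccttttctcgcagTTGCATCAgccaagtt
CARS: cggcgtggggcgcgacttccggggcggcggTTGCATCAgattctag
GARS: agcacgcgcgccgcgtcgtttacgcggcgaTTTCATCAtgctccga
IARS: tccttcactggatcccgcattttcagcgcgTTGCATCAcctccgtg
MARS: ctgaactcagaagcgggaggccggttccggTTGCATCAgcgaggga
NARS: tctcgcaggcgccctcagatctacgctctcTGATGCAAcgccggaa
TARS: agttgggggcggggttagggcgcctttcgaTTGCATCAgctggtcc

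These stretches lie at chr16:70289678-70289723 (AARS, minus strand), chr11:3057410-3057455 (CARS, minus), chr7:30594815-30594860 (GARS, plus), chr9:92293695-92293740 (IARS, minus), chr12:57488034-57488079 (MARS, plus), chr18:57621807-57621852 (NARS, minus) and chr5:33440937-33440982 (TARS, plus), all on GRCh38.p14. Counted from the first transcribed base as 1, the match began at -187 in AARS, -33 in GARS, -13 in IARS, -4 in MARS, -2 in CARS, 3 in TARS and 15 in NARS. Of the 7 genes with the core, 1 (IARS) fell and the median log2 fold change was -0.20, and of the 9 with a promoter and no core, 4 (FARSB, HARS, KARS and WARS) fell and the median was -0.13. These are 14.3% and 44.4%, against 6.12% of all tested genes, and the few genes with and without the core were not compared by a test. Other searched motifs were the E-box CACGTG (1 of 16 cytosolic and 3 of 14 mitochondrial genes, against 8.77% of all), the ETS motif CCGGAAGT (5 and 3, against 4.95%) and the NRF1 motif (3 and 3, against 6.98%). The CRE TGACGTCA was found in the scaffold AIMP2 only among the members (2.25% of all), and CCAAT in 7 cytosolic and 9 mitochondrial genes (39.7% of all). The ETS matches of HARS and HARS2 are the same 2 sites, at chr5:140691372-140691379 and chr5:140691447-140691454, in promoter windows that overlap, and count once in each group.

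ATF4 and its target genes, the setting in which these promoters are known, were split after GMI. ATF4 itself had 191 and 197 FPKM after GMI and 143 and 136 in control (log2 fold change 0.48, adjusted p = 0.00398). Among all tested genes, 9.3% rose and 6.12% fell. Of 33 tested genes of the ATF4 and amino acid response, 7 rose, 5 fell (15.2%) and 21 did not pass, with a median of -0.00. The 3 with the smallest adjusted p rose: ATF3, a stress-induced transcription factor (7.37 and 8.10 FPKM after GMI, 2.64 and 2.96 in control; 1.20), the pseudokinase gene TRIB3 (0.73) and DDIT4, an inhibitor of mTORC1 (0.71). CEBPB, CHAC1 and DDIT3 rose too. The 5 that fell, named after their values were seen, were PSAT1 (-0.49) and PSPH (-0.42) of serine synthesis, PYCR1 of proline synthesis (-0.46), ASNS, asparagine synthetase (-0.31), and SLC7A5, the large neutral amino acid transporter (-0.72). SLC7A5 had 269 and 221 FPKM after GMI and 394 and 412 in control. Other transporter and amino acid genes of the list did not pass and went both ways. Among them were SLC7A11 (0.19), SLC38A2 (0.16), SLC6A9 (0.27), GPT2 (0.14), SHMT2 (0.04) and SLC1A5 (-0.05). CBS (-0.31), ALDH1L2 (-0.24), PHGDH (-0.22), ALDH18A1 (-0.15) and SLC3A2 (-0.11) were lower without passing. Of 27 list genes with a promoter, 9 held the core, against 4.46% of all genes with a promoter. In the lists described below, 3 of 11 interferon response genes and 1 of 14 eIF2 genes with a promoter held it. It was found in 0 of 23 tRNA maturation genes, 0 of 10 elongation genes and 0 of 14 mitochondrial translation factors. With control replicate 1 or 2 left out, 1 and 1 of the list rose and 0 and 0 fell, and 3 fell without GMI replicate 2.

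Of 16 genes of eIF2 and its control, 1 rose and 3 fell (median -0.15). The falls were 18.8% of the list, against 6.12% of all tested genes, of which 9.3% rose. PPP1R15A, the phosphatase subunit that ends eIF2 phosphorylation, had 68.4 and 74.8 FPKM after GMI and 38.5 and 38.3 in control (0.88, adjusted p = 0.00098). EIF2S1, the alpha subunit of eIF2, had a log2 fold change of -0.28, and EIF2B1 and EIF2B3, subunits of its exchange factor, had -0.27 and -0.32 (adjusted p = 0.0488, 0.0407 and 0.0469). EIF2AK4, the GCN2 kinase that senses uncharged tRNA, had 2.30 and 2.27 FPKM after GMI and 2.63 and 2.83 in control and did not pass (-0.18, adjusted p = 0.208). Without control replicate 1 or 2, or without GMI replicate 1, 0 genes of the list fell, and 1 did without GMI replicate 2. PPP1R15A did not pass without either control (0 and 0 rose).

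Of 31 tested tRNA maturation genes, which process or modify the tRNA itself, 5 fell (16.1%, against 6.12% of all tested genes) and 0 rose (against 9.3%). Their median was -0.15, and both GMI libraries lay below both controls for 24, against 30.4% of all tested genes. ELAC2, which cuts the tRNA 3′ end, had 16.3 and 15.0 FPKM after GMI and 21.4 and 21.8 in control (-0.44, adjusted p = 0.00901). The tRNA methyltransferase genes TRMT5 (-0.40) and NSUN2 (-0.30) and, named after their values were seen, PUS7 (-0.36) and TP53RK (-0.31) fell. Without control replicate 1 or 2, 0 and 0 of them fell, and 1 and 2 without GMI replicate 1 or 2. Of 11 genes of elongation and termination, 1 fell (9.09%, against 6.12% of all tested genes) and 1 rose (against 9.3%). ABCE1, which recycles ribosomes, had 8.61 and 9.73 FPKM after GMI and 13.1 and 13.9 in control (-0.52, adjusted p = 0.00931), and EEF1G rose (0.53). EEF1G had 1.49 and 1.32 FPKM after GMI and 0.70 and 0.64 in control, far below its partner EEF1B2, which had 142 and 154 FPKM after GMI and 159 and 147 in control. Neither passed without control replicate 1 or 2 (0 and 0).

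Of 16 mitochondrial translation factors, 0 passed with limma in either direction, against 15.4% of all tested genes. At an unadjusted p under 0.05, 4 were lower and 0 higher, against 15% and 17.2% of all tested genes. QRSL1, PET112 and GATC, the subunits of the amidotransferase that makes mitochondrial glutaminyl-tRNA from the product of EARS2, had log2 fold changes of -0.16, -0.06 and 0.06. Of 15 interferon response genes, a list set beside WARS because interferon gamma induces it, 10 rose and 0 fell, with a median of 0.38. Among all tested genes the shares were 9.3% and 6.12%. STAT2 (14.9 and 15.0 FPKM after GMI, 7.94 and 8.64 in control; 0.78), IFIT3 (1.02) and IRF7 (0.54) rose. IRF1, which acts downstream of interferon gamma, had 0.27 and did not pass (adjusted p = 0.0843), and 0 and 0 genes of the list passed without control replicate 1 or 2, against 7 and 3 without GMI replicate 1 or 2.

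**Figure D4:**
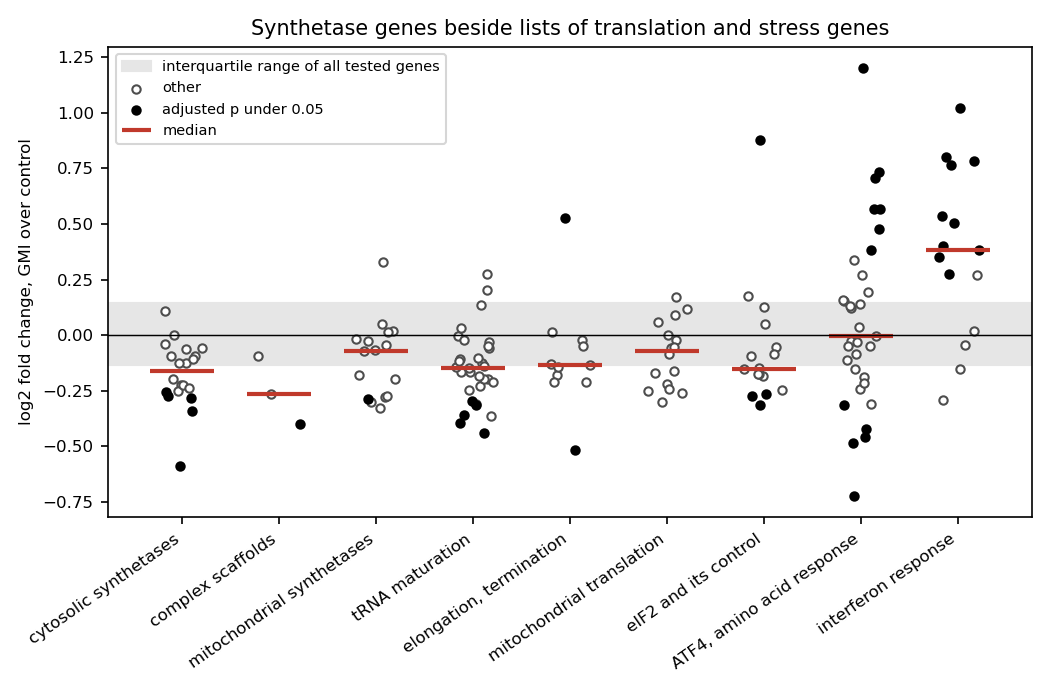
Log2 fold change after GMI, on log2(FPKM + 1), of each tested gene in the 3 synthetase groups and in 6 lists of translation and stress genes, with filled points for an adjusted p under 0.05, a red bar for each median and a grey band for the interquartile range of all tested genes. The cytosolic synthetases have a median of -0.16 and tRNA maturation genes one of -0.15, while the ATF4 list runs from -0.72 to 1.20 and interferon genes have a median of 0.38.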

How the data were processed

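RNA-seq of 4 libraries was used, 2 GMI and 2 control, grouped by the titles in the labels. The deposited values are FPKM made by the authors, 1 file per library. The submitters' processing notes name the build GRCh37 and the tools HTSeq 0.6.1, HISAT2 2.0.1, cutadapt 1.9.1 and bcl2fastq 2.17.1.14. Which annotation release, strand setting and gene lengths lie behind the FPKM was not given in the sources used here.

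Genes with at least 1 FPKM in at least 2 libraries were tested with limma 3.58.1 in R 4.3.3 on log2(FPKM + 1), with the prior variance following mean expression and without covariates. Benjamini-Hochberg adjustment ran over all 11598 tested genes, with a threshold of 0.05. Fold changes are GMI over control on that scale, which understates changes of low genes. The fit was tested on simulated data. Library denominators were read from the FPKM steps of genes up to 200 nt and below 20 FPKM, where 95.8% to 96.8% of values were whole multiples of 1 fragment within 0.006 FPKM (2.8% to 3.2% by chance). Fragment numbers per gene and exon overlaps used GENCODE 29 exons, which are of another build and approximate, and counting errors cover counting only. Tables were made with Python 3.11.15 and pandas 2.3.3.

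The members, gene lists and tests were chosen with earlier results of these data known. Full values are given for members past the threshold and, per compartment, the 2 highest and 2 lowest fold changes and the 2 most abundant genes, and for up to 3 genes per list. Other genes named with values were named after their values were seen. Of the list genes, 5 lay below the filter. An immune marker of the planned list is not reported here.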

Additional observations from a re-analysis of the deposited data

How the results depend on the processing

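With 2 libraries a group, the calls of the synthetase genes varied between alternatives. All 7 members that fell kept a negative log2 fold change in all 10 alternatives, but this was largely fixed in advance. In each of them both GMI libraries lay below both controls, so leaving out 1 library could not change the sign. The filters, the trend and the block do not alter the fold change of a gene. None of the 39 members rose in any alternative that kept all 4 libraries. FARSB and AIMP2 passed in 7 of 10 alternatives, IARS in 5, HARS, KARS and WARS in 4 and AARS2 in 3, with adjusted p from 0.000424 to 0.087 for FARSB and up to 0.275 for WARS. Of the 39 members, 10 changed sign, in 15 of the values that leave out 1 library and under no other alternative, and 29 kept their sign wherever they were tested. Over the 4 fits that each leave out 1 library, AARS ranged from -0.107 to 0.024, HARS2 from -0.016 to 0.039, IARS2 from -0.065 to 0.031, TARS2 from -0.025 to 0.129 and YARS from -0.030 to 0.032. CARS2, FARS2, QARS, VARS2 and YARS2 changed sign too, and the opposite-signed values of the 10 members lay between -0.103 and 0.031.

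Without a filter on low values, 26758 genes were tested, and 0 rose and 1 fell; no member and no gene of the 6 lists passed, so the falls were 0 for the cytosolic, 0 for the scaffold and 0 for the mitochondrial group, and the ATF4, eIF2, elongation, tRNA maturation and interferon lists had 0 up and 0 down. At a mean of at least 5 FPKM, 6070 genes were tested, of which 1003 rose and 705 fell. There 10 cytosolic and 3 mitochondrial synthetases fell, and elongation genes had 0 up and 3 down and mitochondrial translation factors 2 down. Without the mean-variance trend, 1 cytosolic and 0 mitochondrial synthetases fell, 0 eIF2 genes fell and 6 interferon genes rose. Median-ratio scaling moved the median of all tested genes from -0.006 to -0.003 and gave 2 mitochondrial falls.

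Leaving out 1 library gave, over the 4 fits, 28 to 856 rising and 17 to 513 falling genes in all. For the cytosolic group 0 to 5 fell and the median was -0.18 to -0.15; for the scaffolds 0 to 2 fell and the median was -0.46 to -0.07; for the mitochondrial group 0 to 1 fell and the median was -0.138 to -0.073. The difference of the cytosolic and mitochondrial medians was -0.104 to -0.023. In the lists, ATF4 genes had 1 to 7 up and 0 to 5 down, eIF2 genes 0 to 1 up and 0 to 1 down, elongation genes 0 to 0 up and 0 to 1 down, tRNA maturation genes 0 to 1 up and 0 to 2 down, and interferon genes 0 to 7 up and 0 to 0 down. A fit without a library assumes that the lone library of a group varies like the others. The cause of these losses was not tested.

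Same-numbered GMI and control libraries did not deviate together (correlation across genes -0.044), and nothing in the labels pairs them. With the replicate number as a block, 2000 genes passed against 1789, and 7 members passed, of which 6 were the same: AARS2 missed the threshold (adjusted p = 0.0602) and EARS2 passed (0.0484). At 107 fragments PARS2 is the member most limited by depth.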
